A study of Homo sapiens with 18 samples.

Results

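SNORA53, SNORA73A, SNORA73B, SNORA74A, SNORA74B and SNORA81 are 6 human box H/ACA small nucleolar RNA (snoRNA) genes. They were taken by symbol from an RNA-seq table of 26372 gene symbols, and they make up 6 of its 107 box H/ACA genes (symbols beginning with SNORA). They were selected on having an FPKM above 0 in at least 1 library and on being long for their class, so both of these properties are given below as descriptions only. SNORA23 and SNORA58 also have both properties by RefSeq length but were not part of the set, and their values are given separately. The cells were SH-SY5Y, an established line from a human neuroblastoma, and received ZNHIT3 by lentivirus. All constructs were made from the FUGW plasmid and carried wild-type ZNHIT3 (WT), ZNHIT3 with the C14R substitution, or ZNHIT3 with a deletion. Each construct was sampled before differentiation (day 0) and at day 18 of neuronal differentiation in medium with BDNF, KCl, dibutyryl cyclic AMP and all-trans retinoic acid. This gave 6 groups of 3 libraries. The treatment label of the deletion reads 251 to 254 in replicate 1, 251 to 255 in replicate 2 and 251 to 256 in replicate 3, and the titles call these samples Depleted. Whether the cells keep an intact ZNHIT3 gene of their own was not given in the sources used here. The series title links ZNHIT3 to the assembly of snoRNA-protein particles, and the comparisons address whether these RNAs differ between constructs before or after differentiation.

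Box H/ACA snoRNAs fold into a pair of hairpins joined by a hinge, the H box, and end in a short tail with the letters ACA. With dyskerin (DKC1), NHP2, NOP10 and GAR1 they form particles that convert chosen uridines of ribosomal and small nuclear RNA to pseudouridine. SNORA73A and SNORA73B, copies of the RNA known as U17 or E1, are instead needed for cleavage of the ribosomal RNA precursor. SNORA74A and SNORA74B are copies of the RNA known as U19. Most human snoRNAs are cut out of introns of host genes, so a snoRNA and its host can share a transcript yet reach different levels.

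The following sequences are shown for the SNORA73 copies, because these near-identical genes differed in how many libraries gave them a value, and for SNORA74B, because it differed between constructs. They were read from GRCh38 with the gene models of GENCODE release 29, all on the plus strand and 5′ to 3′ as DNA. Capitals mark the ACA found in the last 6 bases and each match to the H box letters ANANNA on the transcript strand in the middle of the gene, from 25% to 75% of its length. SNORA73A lies at chr1:28507366-28507571 and SNORA73B at chr1:28508559-28508762, both within SNHG3 and RCC1. SNORA74A lies on chromosome 5 within SNHG4 and MATR3, and SNORA74B at chr5:173020728-173020928 within ATP6V0E1.
SNORA73A: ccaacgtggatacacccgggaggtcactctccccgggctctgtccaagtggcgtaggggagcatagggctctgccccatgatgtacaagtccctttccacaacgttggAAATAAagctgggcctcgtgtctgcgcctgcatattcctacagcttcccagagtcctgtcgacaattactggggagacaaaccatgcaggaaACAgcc
SNORA73B: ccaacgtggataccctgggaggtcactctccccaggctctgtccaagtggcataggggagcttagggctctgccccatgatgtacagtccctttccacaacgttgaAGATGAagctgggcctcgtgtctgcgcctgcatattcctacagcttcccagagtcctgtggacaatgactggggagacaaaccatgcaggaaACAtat
SNORA74B: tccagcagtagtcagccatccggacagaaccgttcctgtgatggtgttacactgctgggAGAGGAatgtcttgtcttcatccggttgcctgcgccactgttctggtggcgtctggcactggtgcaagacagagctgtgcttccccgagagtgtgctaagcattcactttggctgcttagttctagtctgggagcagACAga

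The SNORA73 copies were identical at 192 of 206 aligned columns (93.2%), with 12 substitutions, 2 gap columns and a longest shared run of 54 bases. Between all other pairs of the 5 genes compared, SNORA74A being left out, the identity lay between 48.0% and 51.0%, with shared runs of at most 9 bases. How the authors' counting divided reads between the SNORA73 copies was not given in the sources used here, so their separate values are uncertain and their sum is given as well. An ACA stood in the last 6 bases of 4 of these 5 genes, SNORA81 being the exception, against 88.7% of 142 annotated box H/ACA genes and 4.73% of 275 box C/D genes. The letters ANANNA are short and were found in the middle of 98.6% of box H/ACA genes and 64% of box C/D genes. They occurred 1 time in SNORA73A, SNORA73B and SNORA74B each, 2 times in SNORA53 and 7 times in SNORA81.

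SNORA53 (chr12:98599635-98599883, plus strand) lies in SLC25A3, which encodes the mitochondrial phosphate carrier, and overlaps an annotated exon of it. SNORA81 (chr3:186786675-186786852, plus strand) lies in EIF4A2, which encodes a translation initiation helicase, overlaps an exon of it and shares its position with MIR1248. SNORA73A overlaps an exon of SNHG3, a noncoding host gene whose transcripts share the locus of RCC1. SNORA73B, SNORA74A and SNORA74B overlap no annotated exon of the host genes named here. SNORA74A also faces SIL1 on the minus strand. Exons of SIL1 and of other genes beyond these hosts and snoRNAs were not compared. Since the use of strand in the counting was not given in the sources used here, reads of an overlapping exon or an opposite gene cannot be told apart from reads of the snoRNA.

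Among the 107 box H/ACA genes of the table, 8 had a value above 0 in at least 1 library, and these were the 6 genes described here with SNORA23 and SNORA58. The remaining 99 were listed at 0 in all 18 libraries. RefSeq gave a length for 100 of the 107 genes. The 8 genes with a value were 177 to 250 nt long (median 204.5 nt), and the 92 matched genes listed at 0 were 121 to 154 nt long (median 134 nt), so the lengths of these sets did not overlap. SNORA81, at 177 nt, was the shortest gene with a value and SNORA62, at 154 nt, the longest without one. SNORA58 is 236 nt long in RefSeq but 137 nt in GENCODE, where its length would fall among those of the genes listed at 0. Genes listed at 0 throughout may include failed estimates, and such a 0 is reported here only as listed.

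**Figure D1:**
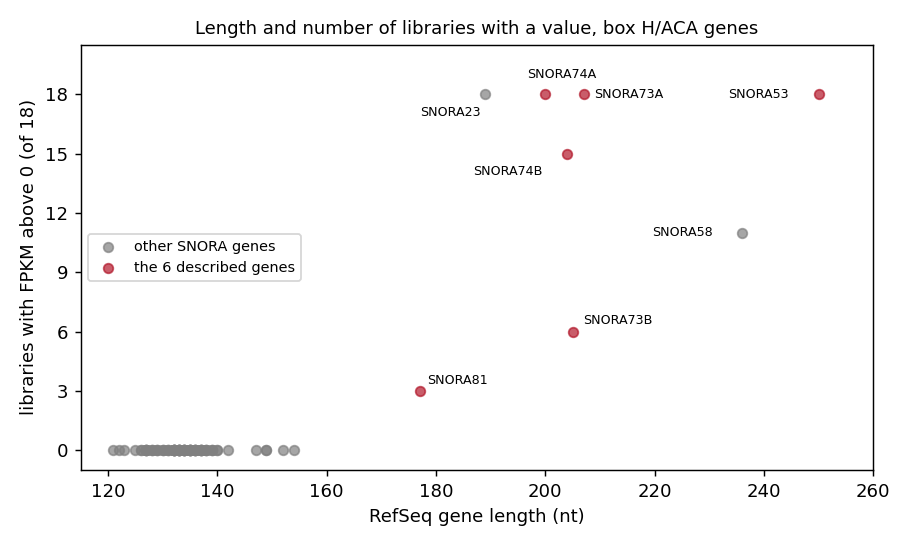
RefSeq length of 100 box H/ACA genes (horizontal axis, nt) against the number of the 18 libraries in which the gene had an FPKM above 0 (vertical axis), with the 6 described genes in red and the others in grey. The 92 genes at 0 libraries lie at 154 nt or below, and the 8 genes with values lie at 177 nt or above.

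The values are FPKM, fragments scaled to the length of the transcript and to the mapped fragments of the library. Absolute depth is unknown for such values, so no counting interval can be given. The steps that single fragments leave in low values gave a relative depth of 58.9% to 84.4% of the deepest library at day 0 and 82.0% to 100% at day 18. SNORD3A, the abundant box C/D RNA U3, took 6.87% to 58.6% of a library's summed FPKM at day 0 and 1.01% to 15.1% at day 18, while the 6 genes together took 0.146% to 0.377% at day 0 and 0.0783% to 0.131% at day 18. At day 0 the libraries split: SNORD3A took 51.5% to 58.6% in 4 of them (WT replicate 1, C14R replicates 1 and 3, deletion replicate 1) and at most 18.6% in the other 5. With these 4 left out, which leaves C14R with 1 library at day 0 assumed to vary like the others, every call on the 6 genes made with all libraries was also made, and SNORA73B by day in C14R was added. At day 18, C14R replicate 1 stood apart, with the lowest SNORD3A share. ZNHIT3 itself was at 531 to 542 FPKM in WT, 419 to 432 in C14R and 292 to 310.1 in deletion libraries at day 0, and at 1103 to 1193, 600 to 756 and 294 to 313 at day 18. The level of ZNHIT3 RNA thus differed between constructs on both days. In the comparisons of constructs, the variant and the amount of ZNHIT3 RNA cannot be told apart. All 8 noradrenergic markers of this line had a mean FPKM of at least 1, with a summed level of 783 to 821 FPKM at day 0 and 1039 to 1225 at day 18. Of 8 markers of the mesenchymal-type state of neuroblastoma 7 passed that limit, PRRX1 being below it, and their summed level fell from between 184 and 230 FPKM at day 0 to between 16.0 and 20.4 at day 18. The part of this shift in the day differences below was not tested. In bulk RNA, fewer cells of one state and less RNA per cell cannot be told apart. Nothing in the labels says that the 3 libraries of a group came from separate cultures, so the p-values measure the spread between these libraries, which may be technical.

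The levels spanned a wide range. Over the 9 day 0 libraries, mean FPKM was 2766 for SNORA73A, 334 for SNORA74A, 300.1 for SNORA73B, 170.3 for SNORA53, 22.7 for SNORA74B and 9.61 for SNORA81. SNORA73A, SNORA74A and SNORA53 had a value in all 18 libraries, SNORA74B in 15, SNORA73B in 6 and SNORA81 in 3. All 6 passed the minimum mean of 1 FPKM for testing.

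**Figure D2:**
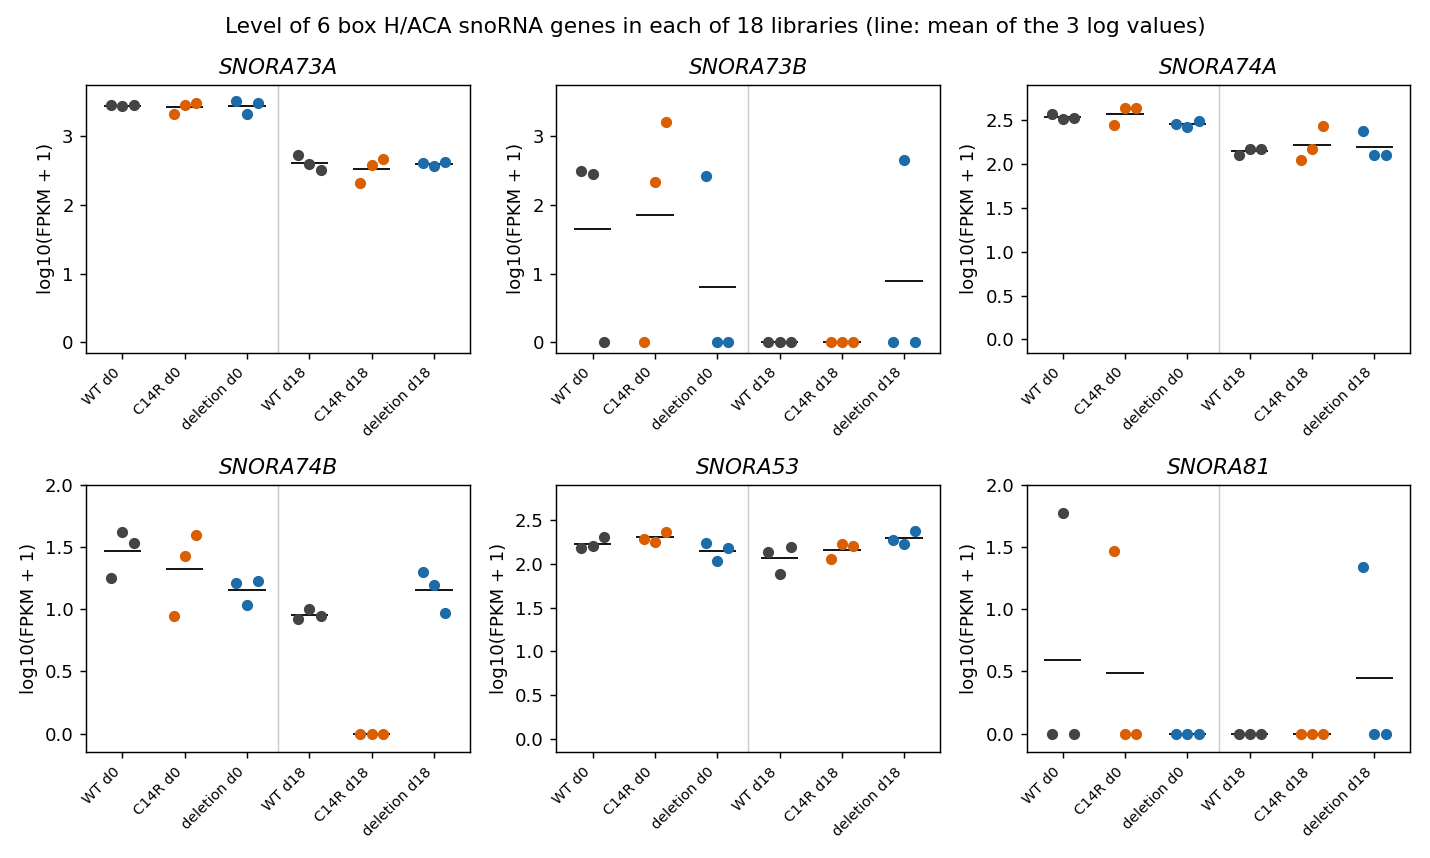
Level of each of the 6 genes in each library as log10(FPKM + 1), with 3 points per construct and day and a line at the mean of the 3 log values; the vertical scale differs between genes. All 9 day 18 values of SNORA73A lie below all 9 of day 0, and SNORA74B is listed at 0 in the 3 C14R libraries of day 18.

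SNORA73A fell strongly with differentiation in all 3 lines. At day 0 it was at 2842, 2750.2 and 2836 FPKM in WT (replicates 1 to 3). The C14R libraries of day 0 were at 2145, 2880.2 and 3035 FPKM, and the deletion libraries at 3244, 2136 and 3029.8. At day 18 the values were 539, 399 and 318 FPKM in WT, 212, 380.1 and 463 in C14R, and 410.1, 369 and 420.2 in deletion. Every day 18 library was below every day 0 library, while the 3 constructs overlapped on each day. The log2 change of FPKM + 1 was -2.78 in WT (SE 0.23, limma adjusted p = 9.6e-09), -2.99 in C14R (SE 0.23, adjusted p = 3.7e-09) and -2.79 in deletion (SE 0.23, adjusted p = 9.0e-09), each from 3 against 3 libraries. The fall did not differ detectably between lines: its difference from WT was -0.21 (SE 0.33, adjusted p = 0.97) in C14R and -0.01 (SE 0.33, adjusted p = 1.00) in deletion. C14R replicate 1 of day 18 held the lowest value, and without it the log2 change in C14R was -2.66.

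SNORA73B, the near-identical copy, had a value in 5 day 0 libraries and 1 day 18 library. The values were 307 and 281 FPKM in WT replicates 1 and 2 of day 0, 215 and 1631 in C14R replicates 2 and 3 of day 0, 267 in deletion replicate 1 of day 0 and 455 in deletion replicate 2 of day 18. The other 12 libraries were listed at 0, so zeros and values above 200 FPKM stood side by side within 4 of the 6 groups. Its day difference did not pass the test in any line (adjusted p = 0.094 in WT, 0.061 in C14R and 0.94 in deletion). With both SNORA73 copies summed in each library before the fit, the log2 change from day 0 to day 18 was -2.87 in WT (SE 0.32, limma adjusted p = 3.4e-07), -3.23 in C14R (SE 0.32, adjusted p = 7.6e-08) and -2.44 in deletion (SE 0.32, adjusted p = 2.5e-06).

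SNORA74A also fell in all 3 lines, by a smaller amount. Its day 0 values were 366, 322 and 329 FPKM in WT, 275, 429.9 and 435 in C14R, and 283, 261 and 303 in deletion. Its day 18 values were 127, 147 and 145 FPKM in WT, 109, 146 and 267 in C14R, and 239, 126 and 125 in deletion. Within each line the days did not overlap, but the highest C14R value of day 18 (267) was above the lowest deletion value of day 0 (261). The log2 change was -1.28 in WT (SE 0.27, limma adjusted p = 0.00040), -1.19 in C14R (SE 0.27, adjusted p = 0.00072) and -0.85 in deletion (SE 0.27, adjusted p = 0.0089). The change in C14R was -0.91 without replicate 1 of day 18 (adjusted p = 0.0056).

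SNORA74B, the other U19 copy, was the least abundant gene with values in most libraries. At day 0 it was at 16.9, 40.6 and 33.3 FPKM in WT, 7.86, 26.0 and 38.7 in C14R, and 15.1, 9.76 and 15.7 in deletion. At day 18 it was at 7.29, 9.03 and 7.83 FPKM in WT, was listed at 0 in all 3 C14R libraries, and was at 18.9, 14.6 and 8.31 in deletion. The day 18 values lay below those of day 0 in WT and C14R and overlapped with them in deletion. In WT the log2 change with day was -1.71 (SE 0.41, limma adjusted p = 0.0014). In deletion it was 0.00 (SE 0.41, adjusted p = 0.996). In C14R the difference passed the test (adjusted p = 3.9e-08), with no fold given because the day 18 libraries are listed at 0. The day change of deletion differed from that of WT by 1.70 on the log2 scale, which did not pass the test over all genes (SE 0.59, adjusted p = 0.51).

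SNORA53, the longest of the 6 genes, passed the test in no comparison. Its day 0 values were 150.3, 157 and 199.8 FPKM in WT, 189, 178 and 229.7 in C14R, and 173, 106 and 149.9 in deletion. Its day 18 values were 135, 74.5 and 156 FPKM in WT, 113, 166 and 157 in C14R, and 184, 169 and 237 in deletion. The days overlapped in WT and deletion and did not overlap in C14R, where day 18 was lower. No day difference passed the test: the log2 change was -0.53 in WT (SE 0.23, limma adjusted p = 0.053), -0.46 in C14R (SE 0.23, adjusted p = 0.089) and 0.47 in deletion (SE 0.23, adjusted p = 0.080). These p-values lie near the threshold of 0.05 and crossed it under some of the other settings. The day change in deletion differed from that in WT by 1.00 on the log2 scale (SE 0.33, limma adjusted p = 0.49).

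SNORA81 had a value in 3 libraries: 58.2 FPKM in WT replicate 2 of day 0, 28.3 in C14R replicate 1 of day 0 and 20.8 in deletion replicate 1 of day 18. The other 15 libraries were listed at 0. No difference passed the test, and with 1 value in a group at most, no order of groups can be read from it.

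Set against all genes, a fall by day 18 was common. Of 13785 genes tested, 72.2% passed the threshold in WT, 72.9% in C14R and 73% in deletion, with 34%, 35% and 34.4% lower and 38.2%, 37.9% and 38.6% higher. Of the 6 snoRNA genes, 3 were lower in WT (SNORA73A, SNORA74A and SNORA74B), the same 3 in C14R, and 2 in deletion (SNORA73A and SNORA74A), and none was higher in any line. The median log2 change over the 6 was -1.83 in WT, -2.31 in C14R and 0.13 in deletion, beside 0.03, 0.02 and 0.03 over all genes tested. These medians depend on the pseudocount, since SNORA73B, SNORA74B and SNORA81 each had at least 1 group listed at 0. Day 18 libraries lay fully below day 0 libraries for 3 of the 6 genes in WT, 4 in C14R and 2 in deletion, beside 36%, 34.5% and 36.8% of all genes tested.

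**Figure D3:**
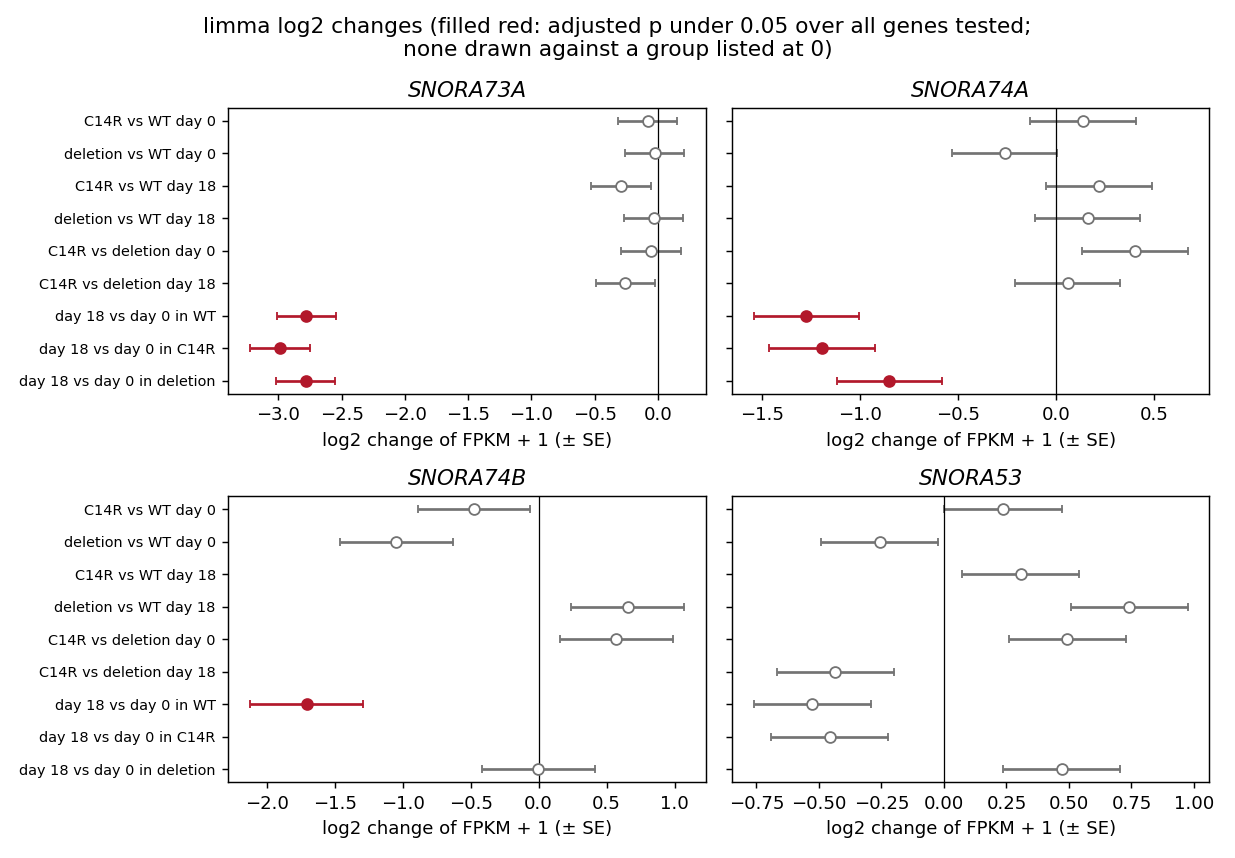
Log2 changes of FPKM + 1 with standard errors from limma (horizontal axis, whose range differs between genes) for the 4 genes with values in at least 15 libraries, in 9 comparisons of 3 against 3 libraries; filled red points have an adjusted p under 0.05, and nothing is drawn against the C14R day 18 group of SNORA74B, which is listed at 0. SNORA73A and SNORA74A lie left of 0 in all 3 day comparisons, and no filled point lies among the comparisons of constructs that are drawn. Those of SNORA74B in C14R against WT and against deletion at day 18 passed the test but are among those not drawn.

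The unequal falls changed the proportions of these RNAs within a library. The ratio of SNORA73A to SNORA74A, in FPKM, ranged from 6.70 to 11.5 (median 8.20) over the 9 day 0 libraries and from 1.72 to 4.25 (median 2.60) over the 9 day 18 libraries, without overlap. SNORA73A to SNORA53 ranged from 11.3 to 20.2 (median 17.5) at day 0 and from 1.77 to 5.36 (median 2.23) at day 18, again without overlap. SNORA74A to SNORA53 had a median of 2.02 at day 0 and 0.94 at day 18, and the ranges overlapped. The median ratio of SNORA74A to SNORA74B was 18.7 over 9 day 0 libraries and 15.6 over the 6 day 18 libraries with a value for both, with overlapping ranges.

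The constructs were then compared on each day. At day 0, 0 of 13785 genes passed the threshold between C14R and WT (0%, and 388 genes had an unadjusted p under 0.05 in limma), and 0.029% passed between deletion and WT. None of the 6 snoRNA genes passed in either comparison. SNORA74A and SNORA74B were lower in all 3 deletion libraries than in all 3 WT libraries of day 0, a separation downward that 9.28% of all genes tested showed. For SNORA74A the means were 282 ± 21.4 and 339 ± 23.6 FPKM (SD, n = 3; log2 change -0.26, limma adjusted p = 0.88), and for SNORA74B 13.5 ± 3.28 and 30.3 ± 12.2 FPKM (log2 change -1.05, adjusted p = 0.77). Deletion replicate 2, the shallowest day 0 library at 58.9% of the deepest, had the lowest day 0 value of SNORA53, SNORA73A and SNORA74A and the second lowest of SNORA74B. The part of its depth in these differences was not tested. Between C14R and deletion at day 0, where 0.058% of genes passed, none of the 6 did, and SNORA53 was higher in all 3 C14R libraries (199 ± 27.3 against 143 ± 33.6 FPKM; adjusted p = 0.51), as were 10.5% of all genes tested.

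At day 18, 0.0363% of genes passed between C14R and WT, 0.0218% being lower, and SNORA74B was the 1 of the 6 among them (limma adjusted p = 0.0035). It also passed between C14R and deletion (adjusted p = 0.00027), where 0.029% of genes passed and 0.0218% were lower. The values were given above: 0 in each C14R library against 7.29 to 9.03 FPKM in WT and 8.31 to 18.9 in deletion. C14R libraries lay fully below WT for 5.64% and fully below deletion for 6.23% of all genes tested. This difference was known when the 6 genes were chosen, so its p-values describe it and give no independent support. Over the alternative settings the adjusted p against WT ranged from 1.1e-06 to 0.029. The fit takes the C14R zeros as exact values with an SD of 0, which enters the spread shared by all groups. Its effect on these p-values was not tested. SNORA74A, the other copy, was not lower in C14R at day 18: it was at 174 ± 82.9 FPKM there, 139.5 ± 11.1 in WT and 163 ± 65.5 in deletion (log2 change 0.22 against WT, SE 0.27, adjusted p = 0.82). With both SNORA74 copies summed, C14R differed from WT by 0.14 on the log2 scale (SE 0.27, adjusted p = 0.90). The change of SNORA74B with day in C14R was not shown to differ from that in WT (interaction adjusted p = 0.41). That p was 0.014 without C14R replicate 1 of day 0, which held the lowest day 0 value, 7.86 FPKM.

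The low level of SNORA74B limits how far its zeros can be read. Each FPKM was multiplied by the relative depth of its library and divided by the lowest such value of that day. The WT libraries of day 18 were then at 1.07, 1.14 and 1.15 times the lowest positive value, and the deletion libraries at 2.75, 1.90 and 1. The libraries of day 0 ranged from 1 to 5.24. In SNORA58, another low H/ACA gene, day 0 values lay near 1 or 2 times the lowest (1 to 1.10 and 1.89 to 2.03). Its day 18 values were at 1.05, 2.95 and 1 times the lowest in C14R (replicates 1 to 3) and at 3.38 in WT replicate 3. WT replicates 1 and 2 and all 3 deletion libraries of day 18 were listed at 0. The number of fragments behind 1 step is not known, so the level that a listed 0 allows cannot be given. Relative depth at day 18 was 92.5% to 99.2% in C14R, 85.7% to 100% in WT and 82.0% to 99.2% in deletion.

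**Figure D4:**
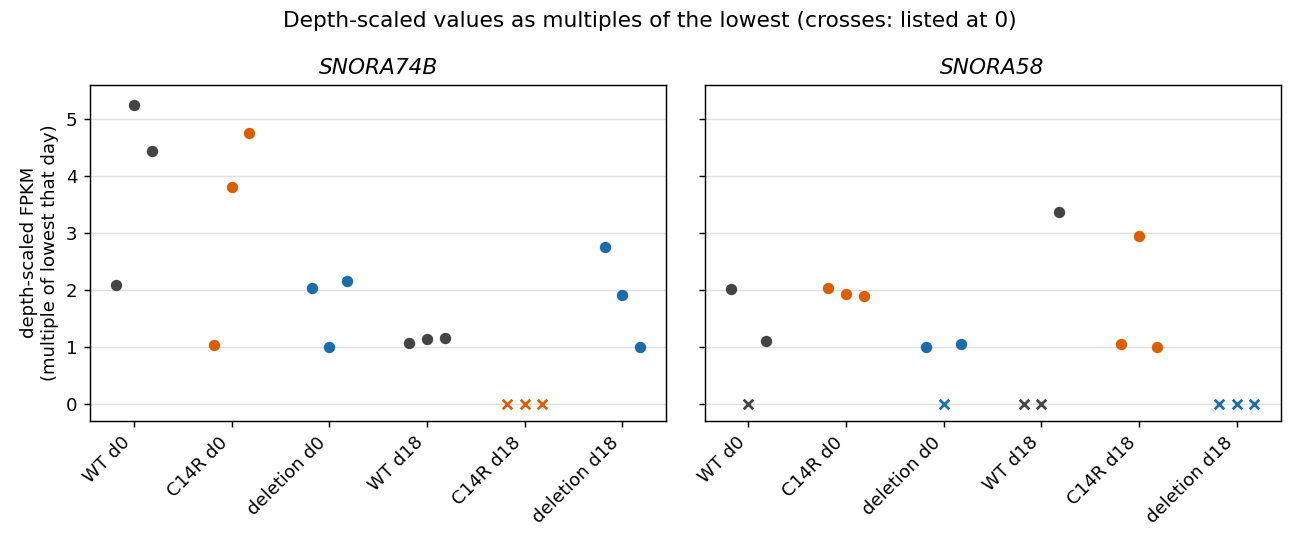
FPKM times relative depth, as a multiple of the lowest positive value of the same day (vertical axis), for SNORA74B and SNORA58 in each library; crosses mark libraries listed at 0. The WT values of SNORA74B at day 18 lie between 1.07 and 1.15, close to the lowest positive value, beside 3 crosses for C14R.

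Between deletion and WT at day 18, 0.0725% of genes passed and none of the 6 snoRNA genes was among them. SNORA53 was higher in all 3 deletion libraries than in all 3 WT libraries (197 ± 35.9 against 122 ± 42.1 FPKM, SD, n = 3), as were 10.4% of all genes tested. Its log2 change was 0.74 (SE 0.23, limma adjusted p = 0.25). SNORA53 was also lower in all 3 C14R libraries of day 18 (146 ± 28.4 FPKM) than in the deletion libraries (limma adjusted p = 0.47). The highest C14R value was 166 FPKM and the lowest deletion value 169. Such a separation downward was shown by 6.23% of all genes tested. The constructs overlapped for SNORA73A at day 18: its log2 difference was -0.03 (SE 0.23) for deletion and -0.29 (SE 0.23) for C14R against WT, the latter 0.04 without C14R replicate 1 of day 18. In the interactions with day, 0% of genes passed for C14R (790 had an unadjusted p under 0.05 in limma) and 0.0145% for deletion, with none of the 6.

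The host genes moved in different directions with differentiation. SNHG3 and RCC1, hosts of the SNORA73 genes, fell in WT by 1.78 and 1.67 (log2; adjusted p = 4.7e-12 and 1.2e-11 in limma). SNHG4, the noncoding host of SNORA74A, fell by 1.72 (adjusted p = 2.2e-08), while MATR3, which encodes a nuclear matrix RNA-binding protein at the same locus, was at 129 ± 2.21 FPKM at day 0 and 128 ± 4.91 at day 18 (adjusted p = 0.89). SLC25A3, host of SNORA53, fell by 0.68 (adjusted p = 2.5e-09). ATP6V0E1, which encodes a subunit of the vacuolar proton pump and hosts SNORA74B, rose by 0.23 (adjusted p = 0.0025), and EIF4A2, host of SNORA81, rose by 0.81 (adjusted p = 3.9e-11). For the host genes that passed in WT, the directions in C14R were the same, and in deletion ATP6V0E1 did not pass (0.11, limma adjusted p = 0.10). MATR3, with a log2 change of -0.01 in WT, changed by 0.05 in C14R and 0.03 in deletion and passed in neither. None of the 7 host genes passed in any comparison of constructs, SNORA74B in C14R at day 18 included: ATP6V0E1 was at 68.6 ± 4.38 FPKM there and 71.5 ± 1.49 in WT.

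Each snoRNA was set against its host within the same library, as log2(FPKM + 1) of the snoRNA minus that of the host, for 6 pairs. Day labels were permuted within construct in an exact two-sided test of 8000 relabelings, for which 0.00025 is the smallest p, and the p-values were adjusted over the 6 pairs. SNORA73A fell more than SNHG3, from a mean difference of 6.56 ± 0.20 at day 0 to 5.59 ± 0.37 at day 18 (SD, n = 9; exact p = 0.00025, adjusted p = 0.00075), without overlap between days. It also fell more than RCC1, from 6.97 ± 0.19 to 5.79 ± 0.37 (exact p = 0.00025, adjusted p = 0.00075). SNORA74A fell less than SNHG4, the difference going from 5.70 ± 0.29 to 6.32 ± 0.48 (exact p = 0.001, adjusted p = 0.0015), but fell relative to MATR3, from 1.35 ± 0.26 to 0.22 ± 0.50 (exact p = 0.0005, adjusted p = 0.001). The direction for SNORA74A thus depends on which of these genes is taken. GENCODE holds a gene model named MATR3 that spans SNORA74A and another of the same name that starts downstream of it. Which model the MATR3 values stand for was not given in the sources used here, so this difference may not be one against a host. SNHG4 was at 0.53 to 1.45 FPKM at day 18, where a pseudocount of 1 weighs heavily, and with no pseudocount SNORA74A gained 1.48 on SNHG4 in place of 0.62.

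Over the 3 lines together SNORA53 rose relative to SLC25A3, from 0.31 ± 0.35 to 0.82 ± 0.47 (n = 9; exact permutation p = 0.020, adjusted p = 0.020), with SNORA53 itself not detectably different between days (mean change -0.17, exact p = 0.39). Most of this rise came from the deletion line, where the difference went from 0.01 to 1.17, against 0.31 to 0.46 in WT and 0.60 to 0.82 in C14R. Over the 3 lines together SNORA74B fell relative to ATP6V0E1, from -1.55 ± 0.83 to -3.81 ± 1.79 (exact permutation p = 0.0022, adjusted p = 0.0027), and the size of this fall depends on the pseudocount because C14R is listed at 0 at day 18. In WT the difference went from -1.07 to -3.01, and in deletion it was -2.18 at day 0 and -2.30 at day 18, so the pooled fall came from WT and from the C14R zeros. For SNORA73A and SNORA74A the mean change had the same sign in all 3 lines against each host. Differences between lines in these changes were not tested. The days overlapped for SNORA53, for SNORA74A against each host and for SNORA74B. Without C14R replicate 1 of day 18 the 6 differences kept their directions, with exact p-values from 0.00025 to 0.013. Since SNORA53 and SNORA73A overlap a host exon, reads shared by both rows can enter these differences.

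**Figure D5:**
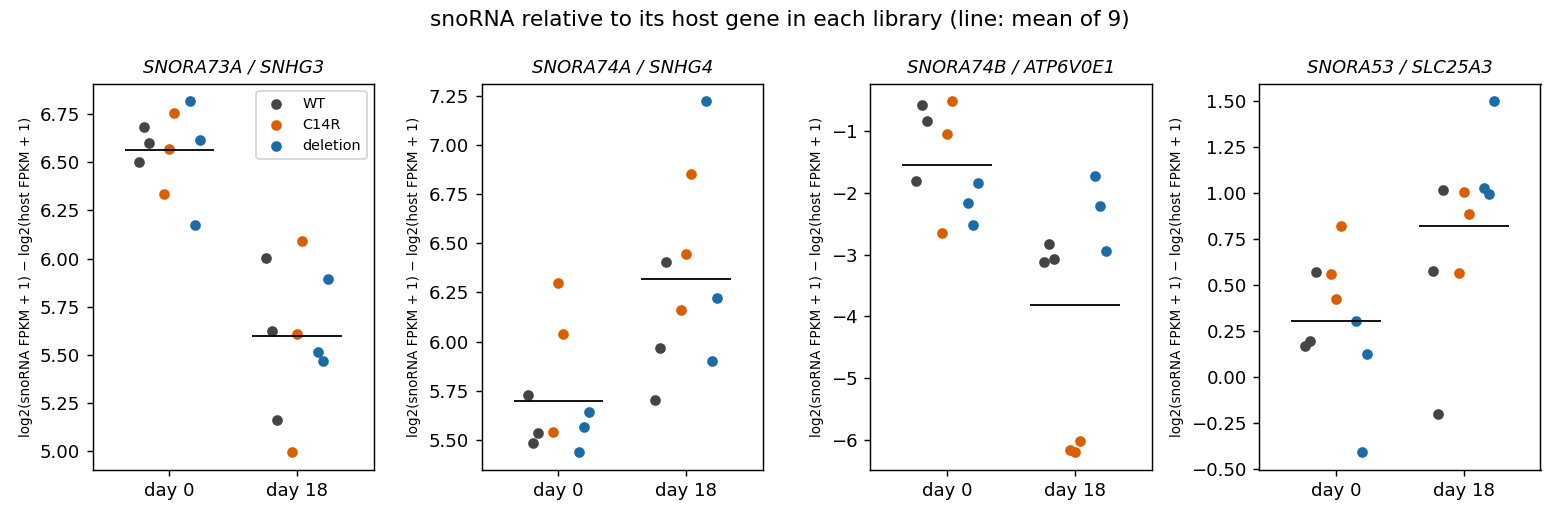
Log2(FPKM + 1) of a snoRNA minus that of a host gene (vertical axis, whose range differs between panels) in each library at day 0 and day 18, coloured by construct, with a line at the mean of 9 libraries. SNORA73A lies lower against SNHG3 at day 18 with no overlap, SNORA74A lies higher against SNHG4, and the 3 lowest points of SNORA74B against ATP6V0E1 are the C14R libraries listed at 0.

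Most genes for proteins that build and hold H/ACA particles fell with differentiation. Of 8 genes in this list, none passed in any comparison of constructs or interaction, while 7 were lower at day 18 in WT, 8 in C14R and 7 in deletion, and none was higher, beside 34%, 35% and 34.4% of all genes tested that were lower. DKC1, the pseudouridine synthase, fell by 1.13 on the log2 scale in WT (limma adjusted p = 5.4e-11), GAR1, a core protein that aids substrate release, by 1.49 (adjusted p = 4.5e-10), and NHP2, an RNA-binding core protein, by 0.85 (adjusted p = 3.0e-08). NOP10, the smallest core protein, did not pass in WT (-0.09, adjusted p = 0.34) or deletion (-0.16, adjusted p = 0.10) and was lower by 0.19 in C14R (adjusted p = 0.048). The assembly factors NAF1, SHQ1, RUVBL1 and RUVBL2 were lower in all 3 lines. The median log2 change of the list was -0.78 in WT, -0.75 in C14R and -0.81 in deletion, beside 0.03, 0.02 and 0.03 over all genes tested.

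The other box H/ACA gene with values in all libraries, SNORA23, a longer gene within IPO7, also fell in all 3 lines. It ranged from 218.6 to 464 FPKM at day 0 and from 57.9 to 218.2 at day 18, so the days were only just without overlap. It fell by 1.49 on the log2 scale in WT (limma adjusted p = 0.00063), 2.01 in C14R (adjusted p = 3.4e-05) and 0.99 in deletion (adjusted p = 0.013). SNORA58 passed in no day comparison. Among 13 RNAs that comprise small Cajal body RNAs and the telomerase RNA TERC, and that include further RNAs of the H/ACA type, none passed between constructs. By day 2 were higher and 6 lower in WT, 2 and 8 in C14R, and 4 and 7 in deletion. The shares called, 61.5%, 76.9% and 84.6%, lay around the 72.2%, 72.9% and 73% of all genes tested.

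The genes whose pattern was most like each snoRNA were taken as the 2 with the highest Pearson correlation of log2(FPKM + 1) over the 18 libraries, as a description. For SNORA73A these were RPL13A (r = 0.99) and SMARCD2 (0.99), for SNORA74A ZNF395 (0.94) and TELO2 (0.93), for SNORA74B HIST2H2BC (0.87) and TSPAN5 (0.82), and for SNORA53 SLC16A1-AS1 (0.74) and MAN2A2 (0.73). With each day's mean subtracted, the leading genes were YIF1A (0.89) and RANGRF (0.89) for SNORA73A, LENG8 (0.83) and EML1 (0.79) for SNORA74A, HIST2H2BC (0.79) and CENPW (0.75) for SNORA74B, and KIF1A (0.79) and SLC16A1-AS1 (0.77) for SNORA53. The points share library, depth and constructs, and the genes were picked as the highest of all those tested. SNORA73B and SNORA81 had values in too few libraries for such a comparison.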

How the data were processed

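Per the labels' protocols, total RNA of SH-SY5Y cells was extracted with TRIzol, treated with DNase I and depleted of ribosomal RNA before NEBNext Ultra library preparation. The authors deposited FPKM, with 1 value per gene symbol and library. The submitters' processing notes name TopHat2, STAR, Cufflinks 2.2.1 and hg38; which step used which tool, the annotation and strand handling were not given in the sources used here. Linear models on log2(FPKM + 1) were fitted with limma 3.58.1 in R 4.3.3 to 6 group means over 18 libraries, with a mean-variance trend and Benjamini-Hochberg adjustment over the 13785 genes with a mean FPKM of at least 1, at a threshold of 0.05. Adding 1 understates changes of low genes. There were 11 comparisons: constructs on each day, days in each line and interactions. The procedure was tested on data simulated with normal noise, for deletion against WT at day 18 over 13785 genes. Of 200 genes changed by 1 on the log2 scale, 196 were recovered, with 14 false calls. No group was set to 0 throughout, so this does not cover the SNORA74B calls that rest on C14R zeros. Relative depth came from genes never above 0.2 FPKM. Gene models were GENCODE release 29 (GRCh38), lengths RefSeq (GRCh38.p14), and alignments used Biopython 1.88. Named genes were the 6 members, their hosts, other SNORA genes with values, H/ACA proteins and the 2 best-correlated genes of each member. Members and lists were chosen with earlier results of these data known. The alternative settings were another pseudocount (0.1), other filters and scalings, a replicate block, no trend, fewer libraries and each replicate left out. The fit without 4 SNORD3A-rich libraries, the summed copies, the host differences and their alternatives, and the wider use of the fit without C14R replicate 1 of day 18 were added after seeing the data. The sequence of SNORA74A is not reported here.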

Additional observations from a re-analysis of the deposited data

How the results depend on the processing

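Over the 9 kinds of alternative setting and the fit without 4 SNORD3A-rich libraries, no snoRNA call was lost and none changed direction. Leaving out single replicates gave 3 to 4 genes called by day in WT, 3 to 4 in C14R and 2 to 3 in deletion, 1 to 1 in each C14R comparison of day 18, 0 to 1 in the C14R interaction and 0 to 0 in the other construct comparisons and the deletion interaction. The C14R interaction count moved to 1, SNORA74B, with a pseudocount of 0.1 and without C14R replicate 1 of day 0, and the day count in C14R moved to 5 when only the libraries compared were fitted; the cause was not tested. In 18 single-gene alternatives a value came past the threshold, all for SNORA53 or SNORA73B by day or SNORA74B in that interaction. SNORA53 passed by day in WT with median-of-ratios scaling (-0.58, adjusted p = 0.034) and rose in deletion when libraries were rescaled without small RNA genes (0.69, adjusted p = 0.012), a scaling that moved the median of all genes by day in WT to 0.21. Of 1104 single-gene alternatives, 61 differed in sign with neither value past the threshold. Over all genes tested, same-numbered libraries showed no clear pairing: correlations of their deviations ran from -0.36 to 0.17. Single RNAs can still follow the replicate number. At day 0 the SNORD3A share was 51.5% to 58.6% in replicate 1 and 6.87% to 7.69% in replicate 2 of the 3 constructs. With the replicate block, the day comparisons called 4 genes (WT), 4 (C14R) and 3 (deletion), SNORA53 being added in each, and the construct and interaction counts stayed at 1, 1 and 0. Absolute depth is unknown for all 6 genes.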
